A study of Mus musculus with 12 samples.

Results

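Brain endothelial cells (BECs) that lack cortistatin were compared with wild-type BECs over 2 culture environments at once, to describe the difference between *Cort*-/- and *Cort*+/+ cells that both environments share. The comparison used all 4 *Cort*-/- libraries (KO) and all 6 *Cort*+/+ libraries (WT) with a measured column, with the environment as an additive term. Of 27321 genes present in the tables of both environments, 13789 reached a mean of 1 RPKM (reads scaled for transcript length and library size) over the 10 libraries and were tested, and 28 of them passed an adjusted p of 0.05. The groups were *Cort*-/- under normal medium (NM, here NX/NG, 21% oxygen with glucose; 2 libraries), *Cort*-/- after oxygen and glucose deprivation (OGD, here OGD-R, 4 h at 1% oxygen without glucose or serum, then 20 h of reoxygenation; 2 libraries), *Cort*+/+ under NX/NG (3 libraries) and *Cort*+/+ after OGD-R (3 libraries). All cells were primary cultures enriched with puromycin from the brains of mice, described in the methods as 8 weeks old, of the strain C57BL/6 in the labels (C57BL/6J for the *Cort*-/- line in the methods), and each replicate was a pool of 3 mice. The labels also name a stroke model (MCAO) for every sample, while the methods describe treatment of the cultures. The *Cort*-/- mice lack the gene in every tissue throughout life, and their line is bred from animals with 1 null allele; no source used here says whether the *Cort*+/+ mice were littermates. NX/NG replicate 3 and OGD replicate 2 of *Cort*-/- were not analysed here. The sources do not say whether the NX/NG and OGD-R libraries of a genotype with the same number came from 1 pool, and p-values measure the spread between these libraries.

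Cortistatin is a small neuropeptide related to somatostatin. It binds the somatostatin receptors and the ghrelin receptor, and it is best known for sleep regulation in the cortex and for anti-inflammatory actions on immune and vascular cells. BECs form the blood-brain barrier through tight junctions, selective transporters and a basement membrane that they share with pericytes.

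Each library held between 12386048 and 12390428 reads on genes, recovered from the RPKM values, so depth was nearly equal in these values. The paper reports a higher mean number of paired-end reads, and it is not known here whether the reads were subsampled. Ribosomal RNA (*Rn18s-rs5*) made up between 7.64 and 15.8% of each of 8 libraries. It was 0.0951% in replicate 3 of *Cort*-/- after OGD-R, and 0.0775% in replicate 1 of *Cort*+/+ after OGD-R. Both of these libraries stand apart from the rest, and counts that move by over 1.5 times without them are given both ways. *Cort* itself had 0 reads in all 4 *Cort*-/- libraries and 2, 1 and 1 reads under NX/NG and 0, 0 and 1 reads after OGD-R in the *Cort*+/+ libraries, so its level could not check the genotype labels at this depth. Of its receptors, *Sstr2* had 7 to 19 reads in the *Cort*-/- libraries and 3 to 29 in the *Cort*+/+ libraries, *Sstr4* 4 to 16 and 12 to 19, and *Sstr1* 0 and 0 to 2. *Ghrl*, the ghrelin precursor, had 5 to 12 and 6 to 20 reads. None of these genes reached 1 RPKM, and none was tested. The 30 endothelial identity genes were all present and summed to 2203 to 2737 RPKM in the *Cort*-/- libraries and 1916 to 2431 RPKM in the *Cort*+/+ libraries.

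Few genes passed the adjusted threshold for the genotype effect shared by both environments, and large differences were among them. The number of calls does not measure the extent of the effect. At an adjusted p of 0.05, 13 genes were higher and 15 lower in *Cort*-/- BECs (0.203% of the genes tested in either direction, 0.0943% higher and 0.109% lower). Leaving aside *Traj32*, which had too few reads, the 2 largest differences on the lower side were in *Rab6b* and *Pdpn* and the 2 largest on the higher side in *Gm49980* and *Eno1b*, of which the last shares most of its sequence with another gene. Absolute log2 fold changes of the called genes started at 0.42 with a median of 0.72, and 6 of the 28 were of at least 1 log2 unit. At an unadjusted p under 0.05, 998 genes were higher (7.24%) and 1138 lower (8.25%), and the median log2 fold change of all genes tested was 0.00. All 4 *Cort*-/- libraries lay above all 6 *Cort*+/+ libraries for 200 genes (1.45%) and below them for 216 (1.57%). The called genes were spread over the range of abundance, from percentile 2.71 (*Traj32*) to 98.4 (*ENSMUSG00002074901*) among the genes tested. Their median percentile was 47.5, and 15 of the 28 lay below the median of the genes tested. The number of calls rested on single libraries: it was 322 without *Cort*-/- OGD-R replicate 3, 39 without *Cort*+/+ NX/NG replicate 3, 19 without *Cort*+/+ OGD-R replicate 3, and 7 to 11 without any other library. It also varied with the model, from 4 to 485 over all alternative analyses, and was 142 with limma-voom on the recovered reads.

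**Figure D1:**
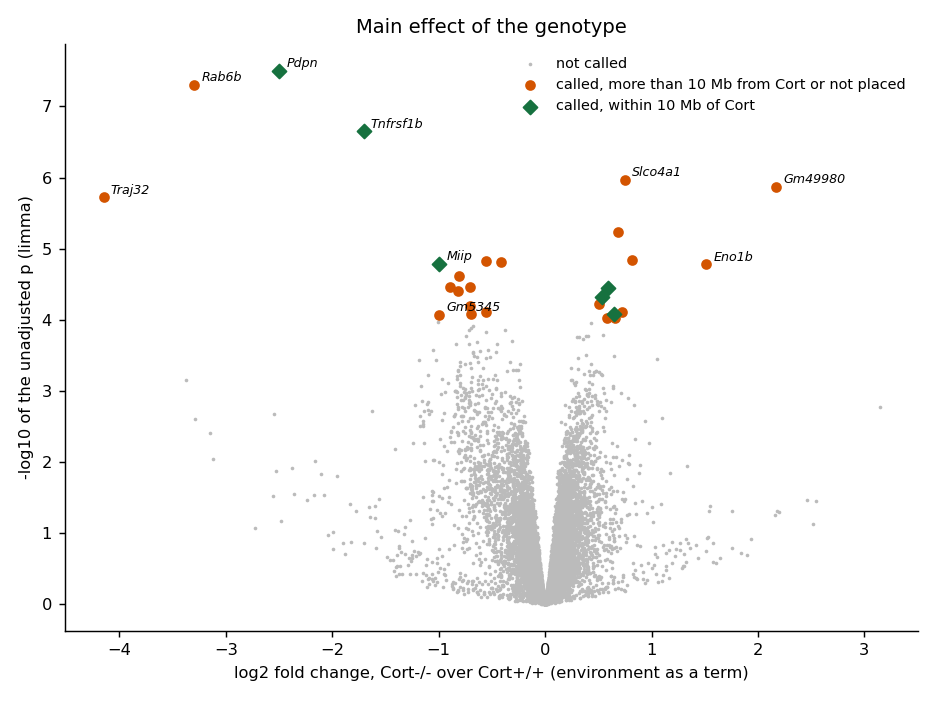
Log2 fold change of *Cort*-/- over *Cort*+/+ BECs (horizontal axis, environment as a term) against −log10 of the unadjusted limma p (vertical axis) for 13786 of the 13789 genes tested, 1 point per gene, with 27 called genes coloured and the most extreme of them named. *Pdpn* and *Rab6b* sit highest on the left, and most other points crowd near a log2 fold change of 0.

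*Pdpn*, *Tnfrsf1b* and *Rab6b* had the lowest adjusted p-values. *Pdpn* encodes podoplanin, a mucin-type membrane glycoprotein of lymphatic endothelium, meningeal and fibroblastic cells. *Tnfrsf1b* encodes TNF receptor 2, and *Rab6b* a Rab GTPase of Golgi transport that is best known from neurons. The first 2 lie on chromosome 4 with *Cort*, 5.83 and 3.88 Mb from it (GRCm38 positions looked up by symbol), and *Rab6b* lies on chromosome 9. The 250 bases before their annotated starts are shown because these genes lead the comparison, with capitals for matches on either strand to a GC box (GGGCGG, read as CCGCCC on the other strand) or an E-box (CACGTG). The sequences are from RefSeq, GRCm38.p6, written 5′ to 3′ on the strand of the gene.
*Pdpn*, chr4:143299565-143299814, minus strand: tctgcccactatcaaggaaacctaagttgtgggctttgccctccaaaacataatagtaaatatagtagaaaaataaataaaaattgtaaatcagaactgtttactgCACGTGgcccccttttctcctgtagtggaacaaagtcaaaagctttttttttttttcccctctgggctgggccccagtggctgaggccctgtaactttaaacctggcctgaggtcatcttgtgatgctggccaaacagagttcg
*Tnfrsf1b*, chr4:145246871-145247120, minus strand: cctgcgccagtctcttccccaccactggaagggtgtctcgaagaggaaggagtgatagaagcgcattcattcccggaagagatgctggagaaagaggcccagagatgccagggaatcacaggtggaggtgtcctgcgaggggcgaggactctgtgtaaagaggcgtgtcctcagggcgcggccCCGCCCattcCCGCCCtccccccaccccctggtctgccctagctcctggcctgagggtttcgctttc
*Rab6b*, chr9:103111824-103112073, plus strand: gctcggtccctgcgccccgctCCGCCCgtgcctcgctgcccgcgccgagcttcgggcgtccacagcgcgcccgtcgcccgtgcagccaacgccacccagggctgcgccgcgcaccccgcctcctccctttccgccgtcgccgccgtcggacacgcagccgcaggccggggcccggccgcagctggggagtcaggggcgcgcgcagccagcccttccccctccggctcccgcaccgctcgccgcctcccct
The *Pdpn* window held 1 E-box 144 bases before the start and had a GC content of 43.2%, that of *Tnfrsf1b* held GC boxes 67 and 57 bases before the start with a GC content of 62.8%, and that of *Rab6b* held 1 GC box 229 bases before the start with a GC content of 80.8%. Of the called genes 19 had such a window: GGGCGG was in 13 of them (33.0% of all 32536 windows), CCAAT in 7 (33.8%), CACGTG in those of *Pdpn* and *Clcn6* (6.04%), TATAAA in 1 (12.3%), and TGANTCA (6.73%) and TGACGTCA (1.56%) in 0. The counts are of called genes, while the percentages are of unique windows over all annotated genes, expressed or not, so the 2 are not directly comparable. No motif of this set contains another. A match describes letters and says nothing of binding.

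*Pdpn* read 4.72 and 2.68 RPKM under NX/NG and 3.57 and 3.85 RPKM after OGD-R in the *Cort*-/- libraries, and 18.6 to 26.1 RPKM with a median of 20.01 in the *Cort*+/+ libraries. Every *Cort*-/- library was thus far below every *Cort*+/+ library, and the means were 3.70 ± 0.843 RPKM (SD, n = 4) against 21.2 ± 2.99 RPKM (SD, n = 6). The shared difference was 5.66-fold (log2 fold change −2.50, SE 0.15, limma adjusted p = 0.000344), with −2.47 ± 0.23 under NX/NG and −2.53 ± 0.23 after OGD-R. *Tnfrsf1b* read 2.77 and 3.18 RPKM under NX/NG and 3.83 and 2.58 RPKM after OGD-R, against 8.504 to 13.3 RPKM with a median of 10.1. The genotypes again did not overlap in any library, and the level was 3.26-fold lower in *Cort*-/- BECs (log2 fold change −1.71, SE 0.13, limma adjusted p = 0.00103). For *Rab6b* the *Cort*-/- libraries gave 0.248 and 0.193 RPKM under NX/NG and 0.314 and 0.270 RPKM after OGD-R, against 2.04 to 4.88 RPKM with a median of 3.47. This low level rested on 12 to 19 reads per *Cort*-/- library and 132 to 301 reads per *Cort*+/+ library, and the difference was 9.83-fold (log2 fold change −3.30, SE 0.21, limma adjusted p = 0.000344). *Pdpn* and *Rab6b* passed the threshold in all 25 alternative analyses and *Tnfrsf1b* in 24. Podoplanin also marks fibroblastic cells, and the fibroblast and leptomeningeal markers summed to 104 to 276 RPKM in the *Cort*-/- libraries and 230.5 to 375 RPKM in the *Cort*+/+ libraries. The highest *Cort*-/- sum, 276 RPKM in OGD-R replicate 3 (low in ribosomal RNA), went with *Pdpn* at 3.85 RPKM. The lowest *Cort*+/+ sum, 230.5 RPKM in NX/NG replicate 3, went with *Pdpn* at 18.9 RPKM. These libraries were picked for their sums, and the part of fibroblastic cells in the *Pdpn* values was not tested. In these bulk cultures, fewer cells of a type and less RNA per cell cannot be told apart.

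Of the other called genes, *Osmr* and *Htr1b* encode receptors and *Ulbp1* a ligand. *Osmr*, the receptor subunit for oncostatin M, read 1.40 and 1.22 RPKM under NX/NG and 2.24 and 1.87 RPKM after OGD-R in *Cort*-/- against 2.25 to 3.39 RPKM with a median of 2.83 in *Cort*+/+ (log2 fold change −0.71, SE 0.10, limma adjusted p = 0.0290). Its groups did not overlap, at a difference of 1.64-fold. *Htr1b*, a serotonin receptor of vascular and neuronal cells, gave 1.52 and 1.22 RPKM under NX/NG and 1.81 and 2.13 RPKM after OGD-R against 2.47 to 3.48 RPKM with a median of 2.87 (log2 fold change −0.81, SE 0.10, limma adjusted p = 0.0239). Its exons share 18.0% of their bases with *D430036J16Rik* on the other strand, whose own value was −0.82 (adjusted p = 0.131), and it is not stated whether the counting used the strand. *Ulbp1*, a ligand of the natural killer receptor NKG2D, was higher with 66.4 and 72.0 RPKM under NX/NG and 60.9 and 44.9 RPKM after OGD-R against 31.0 to 49.3 RPKM with a median of 37.0 (log2 fold change 0.65, SE 0.10, limma adjusted p = 0.0472). Within each environment its groups were apart, though over all 10 libraries they overlapped.

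Genes of the cell surface, adhesion and matrix were called in both directions. *Itga3*, the alpha subunit of a laminin-binding integrin, read 77.2 and 70.7 RPKM under NX/NG and 60.2 and 63.1 RPKM after OGD-R against 38.8 to 60.0 RPKM with a median of 46.2 (log2 fold change 0.50, SE 0.07, limma adjusted p = 0.0410), with every *Cort*-/- library above every *Cort*+/+ library. *Clstn1*, which encodes the cadherin-like membrane protein calsyntenin-1, read 36.7 and 34.4 RPKM under NX/NG and 40.3 and 36.5 RPKM after OGD-R against 22.7 to 29.0 RPKM with a median of 25.3 (log2 fold change 0.53, SE 0.08, limma adjusted p = 0.0345), again without overlap. *Tgfbi*, a secreted matrix protein induced by TGF-beta, was lower with 3.14 and 3.97 RPKM under NX/NG and 5.13 and 4.56 RPKM after OGD-R against 5.10 to 7.94 RPKM with a median of 6.13 (log2 fold change −0.56, SE 0.08, limma adjusted p = 0.0450). The *Tgfbi* groups were apart in each environment but overlapped across environments.

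Called transporters and channels were *Slco4a1*, *Clcn6*, *Ano1* and *Ank*. *Slco4a1*, an organic anion transporter that carries thyroid hormones, read 9.61 and 9.03 RPKM under NX/NG and 6.67 and 6.44 RPKM after OGD-R against 3.33 to 6.17 RPKM with a median of 4.65. No library of one genotype reached into the range of the other, and the level was 1.68-fold higher in *Cort*-/- BECs (log2 fold change 0.75, SE 0.07, limma adjusted p = 0.00373). *Clcn6*, a chloride and proton exchanger of late endosomes, read 5.89 and 5.18 RPKM under NX/NG and 6.53 and 5.51 RPKM after OGD-R against 3.12 to 4.24 RPKM with a median of 3.65 (log2 fold change 0.64, SE 0.10, limma adjusted p = 0.0450). *Ano1*, a calcium-activated chloride channel, read 38.5 and 42.9 RPKM under NX/NG and 38.9 and 33.1 RPKM after OGD-R against 22.2 to 34.1 RPKM with a median of 24.3 (log2 fold change 0.58, SE 0.09, limma adjusted p = 0.0472). In contrast, *Ank*, which exports pyrophosphate and ATP, was lower with 16.9 and 16.8 RPKM under NX/NG and 24.03 and 21.8 RPKM after OGD-R against 22.1 to 31.0 RPKM with a median of 26.03 (log2 fold change −0.42, SE 0.05, limma adjusted p = 0.0175), the smallest difference among the called genes.

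Enzymes and intracellular proteins made up most of the rest. *Ptgs1*, the constitutive cyclooxygenase, was lower with 6.43 and 6.59 RPKM under NX/NG and 10.03 and 11.1 RPKM after OGD-R against 10.9 to 16.5 RPKM with a median of 13.4 (log2 fold change −0.71, SE 0.10, limma adjusted p = 0.0417). *Dffa*, the inhibitor of the caspase-activated DNase, was higher with 8.21 and 9.41 RPKM under NX/NG and 8.94 and 7.48 RPKM after OGD-R against 5.12 to 6.22 RPKM with a median of 5.62 (log2 fold change 0.59, SE 0.08, limma adjusted p = 0.0290). *Miip*, an inhibitor of cell migration, read 2.43 and 1.55 RPKM under NX/NG and 1.81 and 2.06 RPKM after OGD-R against 3.34 to 4.55 RPKM with a median of 3.95, about a 1-log2-unit difference (log2 fold change −0.995, SE 0.12, limma adjusted p = 0.0175). *Ccdc8*, a subunit of the 3M complex, was lower with 0.952 and 0.927 RPKM under NX/NG and 1.28 and 1.23 RPKM after OGD-R against 1.82 to 2.53 RPKM with a median of 1.93 (log2 fold change −0.82, SE 0.11, limma adjusted p = 0.0302). *Cst6*, the cysteine protease inhibitor cystatin M, was higher with 3.52 and 3.63 RPKM under NX/NG and 2.62 and 3.18 RPKM after OGD-R against 1.48 to 2.33 RPKM with a median of 1.92 (log2 fold change 0.73, SE 0.11, limma adjusted p = 0.0450). *Syt15*, of the synaptotagmin family, read 2.16 and 2.20 RPKM under NX/NG and 3.30 and 3.29 RPKM after OGD-R against 2.95 to 5.89 RPKM with a median of 4.57 (log2 fold change −0.70, SE 0.11, limma adjusted p = 0.0450), apart in each environment but not over all libraries.

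*Eno1b* was higher in *Cort*-/- BECs with 47.0 and 37.2 RPKM under NX/NG and 41.8 and 54.1 RPKM after OGD-R against 11.9 to 21.9 RPKM with a median of 14.0 (log2 fold change 1.51, SE 0.19, limma adjusted p = 0.0175). The gene is a close copy of *Eno1*, the glycolytic enzyme enolase: 79.2% of its 40-base words also occur in *Eno1* and 86.9% in some other gene, so the counting could split reads between them and its value is uncertain. *Eno1* itself read 88.3 ± 9.10 RPKM (SD, n = 4) against 106 ± 8.91 RPKM (SD, n = 6), a log2 fold change of −0.26 (adjusted p = 0.191). Other called genes are non-coding, copies or without an entry in GENCODE M21. *Gm49980* was higher (log2 fold change 2.17, SE 0.20, limma adjusted p = 0.00374) on 46 to 62 reads per *Cort*-/- library against 7 to 15 reads. Among the lincRNAs, *Gm37565* was higher (log2 fold change 0.68, SE 0.07, limma adjusted p = 0.0100) and *E230014E18Rik* lower (log2 fold change −0.55, SE 0.07, limma adjusted p = 0.0175). The antisense transcript *Gm13442* was higher (log2 fold change 0.82, SE 0.10, limma adjusted p = 0.0175) and shares 25.3% of its exon bases with *Aif1l* on the other strand, whose value was 0.62 (adjusted p = 0.0963). The processed pseudogene *Gm5345* was lower (log2 fold change −0.99, SE 0.15, limma adjusted p = 0.0450), with 22.6% of its words in other genes, and *ENSMUSG00002074901* was lower too (log2 fold change −0.90, SE 0.12, limma adjusted p = 0.0290). *Traj32*, a T cell receptor joining segment of 66 bases, had 0 reads in every *Cort*-/- library and 1 to 3 reads in every *Cort*+/+ library, at or under the floor of 3 reads, so no fold is given.

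**Figure D2:**
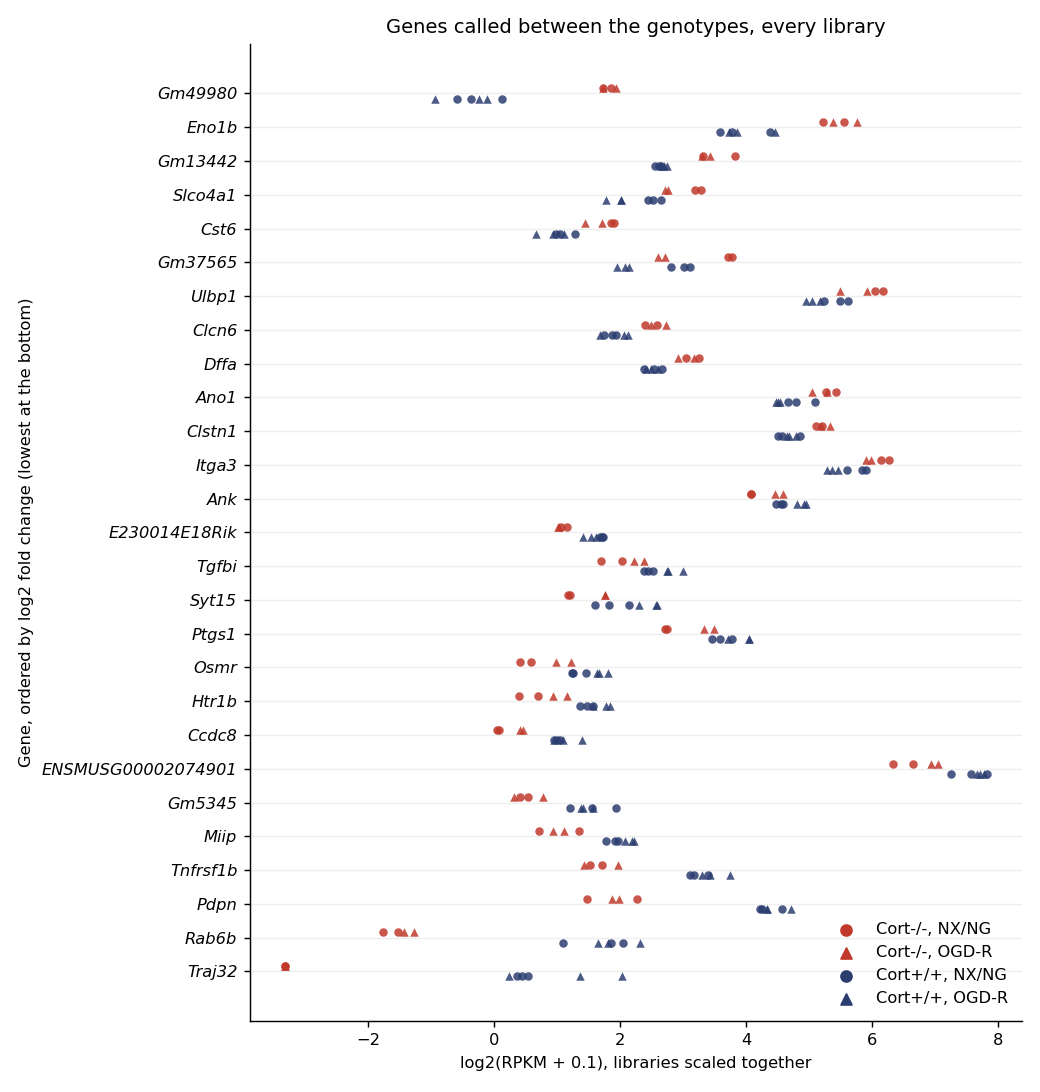
Level of 27 of the 28 called genes on the log2(RPKM + 0.1) scale (horizontal axis), 1 row per gene in order of log2 fold change and 1 point per library, coloured by genotype and shaped by environment. In 20 of the 27 rows the 4 *Cort*-/- points lie wholly to 1 side of the 6 *Cort*+/+ points.

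Whether the genotype effect was the same in both environments was examined for each gene side by side, since the 2 estimates use separate libraries. Their SEs and p-values are not separate, because they come from 1 fit with a spread shared by all libraries. All 28 called genes had the same sign under NX/NG and after OGD-R, an unadjusted p under 0.05 in each, and no overlap between genotypes within either environment. Among all genes tested 66.2% had the same sign in both, and 970 (7.03%) had no overlap in either environment in the same direction. These shares are a description, because genes with discordant values could hardly have been called. In that fit the contrast within NX/NG called 3 genes (0.0218%) and that within OGD-R 4 (0.029%), with 1389 and 688 at an unadjusted p under 0.05. *Pdpn* and *Rab6b* were called in both, *Tnfrsf1b* after OGD-R, and *Cox6b2* under NX/NG and *Mir7019* after OGD-R were called in their 1 environment but not in the joint comparison and are named here after their values were seen. The interaction of genotype and environment called 0 genes (0.0%; limma, 229 at an unadjusted p under 0.05; limma-voom also called 0), and 2 without *Cort*-/- OGD-R replicate 1. None of the 28 had an unadjusted interaction p under 0.05. Among the closest pairs of values were those of *Ulbp1*, with 0.66 ± 0.15 under NX/NG and 0.65 ± 0.15 after OGD-R, and *Clcn6*, with 0.64 ± 0.15 under NX/NG and 0.65 ± 0.15 after OGD-R. Wider gaps, short of an unadjusted p of 0.05 for the difference, were those of *Ptgs1*, with −0.89 ± 0.13 under NX/NG and −0.53 ± 0.13 after OGD-R, and *Miip*, with −0.86 ± 0.17 under NX/NG and −1.14 ± 0.17 after OGD-R.

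**Figure D3:**
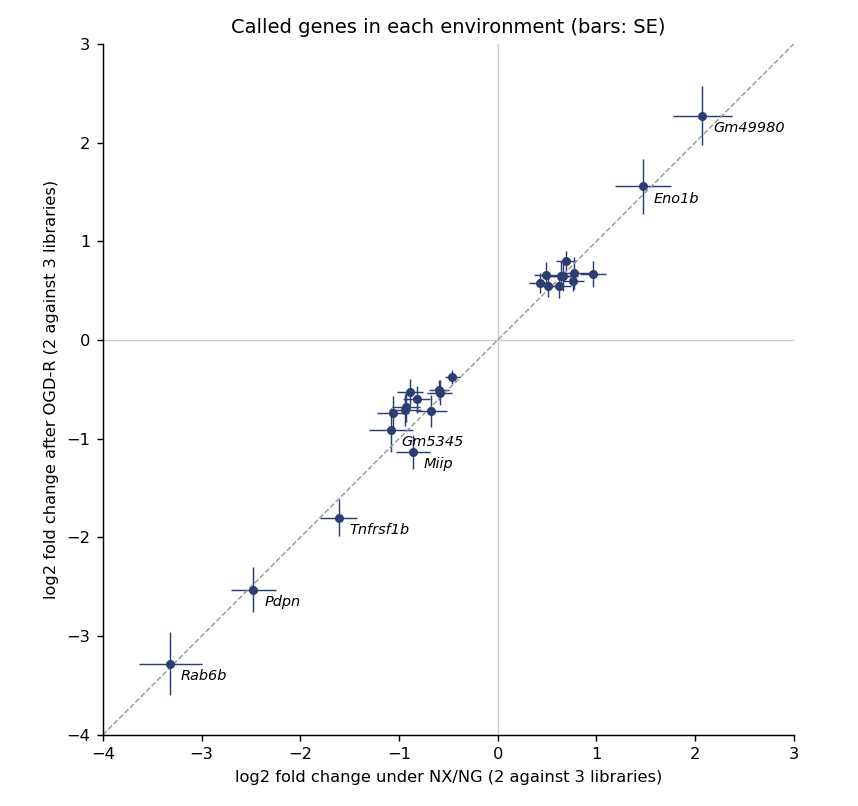
Log2 fold change of *Cort*-/- over *Cort*+/+ under NX/NG (horizontal axis) and after OGD-R (vertical axis) for 26 called genes (*Traj32* left out), each from 2 against 3 libraries, with bars for the SE and a diagonal of equal effects. The SE rests on a spread shared by all libraries. The points follow the diagonal from *Rab6b* at −3.32 and −3.28 to *Gm49980* at 2.07 and 2.27.

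Some of the same genes also differed between the environments at the unadjusted threshold. For 13 of the 28 (46.4%) the difference between OGD-R and NX/NG had an unadjusted p under 0.05, against 12.1% of all genes tested, and 7 of the 13 were higher after OGD-R. The same residual spread enters both terms. After OGD-R the level of *Gm37565* differed by −0.99 log2 units and that of *Slco4a1* by −0.56, while *Syt15* differed by 0.60, *Osmr* by 0.47 and *Ptgs1* by 0.47. The genotypes of *Slco4a1* stayed apart across this shift.

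Genes near *Cort* made up 7 of the 28 calls. Within 10 Mb of *Cort* on chromosome 4, 163 genes were tested and 7 called (4.29%), against 21 of 13626 (0.154%) elsewhere. 4 of the 7 were higher (among them *Dffa*, *Clstn1* and *Clcn6*) and 3 lower (*Pdpn*, *Tnfrsf1b* and *Miip*), so no single direction prevailed. *Dffa* lies 4.39 kb from *Cort*, *Clstn1* 0.460 Mb, *Clcn6* 1.09 Mb and *Miip* 1.26 Mb. The unadjusted threshold of 0.05 was passed by 49 genes of the window (30.1%), of which 19 were higher and 30 lower, and the median absolute log2 fold change was 0.134 against 0.0984 over all genes tested. The count was 6 of 76 genes within 5 Mb and 7 of 313 within 20 Mb. It was 2 without *Cort*-/- OGD-R replicate 1, 3 or 4 without *Cort*-/- NX/NG replicates 1 or 2, *Cort*+/+ NX/NG replicates 1 or 2 or *Cort*+/+ OGD-R replicates 1 or 2, and 5 to 8 without any of the remaining libraries. *Cort* lies 7.13 Mb from the last gene of the chromosome, so the window ends early on that side. Among nearby genes that did not pass were *Cenps*, a centromere protein next to *Cort*, at 0.37 (adjusted p = 0.353), *Nppb*, the B-type natriuretic peptide, at −1.19 (adjusted p = 0.0797), and *Tnfrsf8*, the receptor CD30, at −1.15 (adjusted p = 0.120). The deletion and the alleles linked to it share this stretch of chromosome and cannot be told apart in this design.

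**Figure D4:**
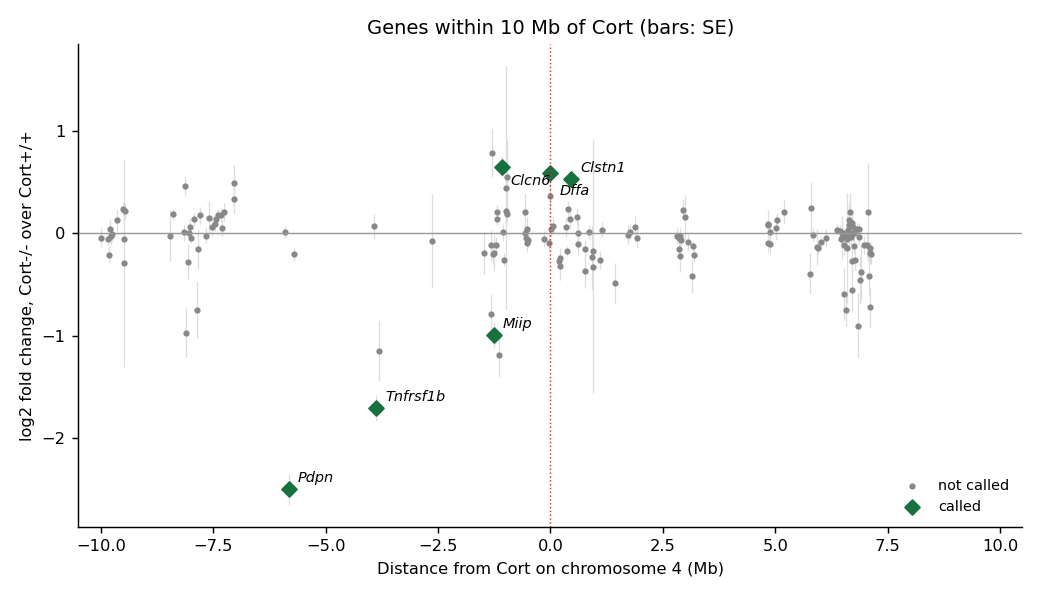
Log2 fold change of *Cort*-/- over *Cort*+/+ with its SE (vertical axis) against distance from *Cort* on chromosome 4 in Mb (horizontal axis) for 162 of the 163 genes tested within 10 Mb. The 6 called genes drawn are coloured, with 5 of them within 5 Mb and *Pdpn*, at 5.83 Mb, the lowest.

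Gene lists were described by how many tested members had an unadjusted p under 0.05, read against 7.24% higher and 8.25% lower over all genes. No member passed the adjusted threshold unless it is named as called. Values given for members cover both environments together unless 1 is named, and some of these differences lay mainly under NX/NG. Matrix and mesenchymal lists had many members on the lower side. Of 16 collagen chains outside basement membranes, 9 were lower and 1 higher, with a median log2 fold change of −0.68 (−0.97 under NX/NG and −0.38 after OGD-R), and *Col3a1*, a fibrillar collagen, had −0.82 (adjusted p = 0.0858) and *Col11a1* −0.84 (adjusted p = 0.0954). *Col11a1* had −1.24 under NX/NG and −0.44 after OGD-R. Of 21 genes of collagen processing, 12 were lower and 2 higher (median −0.22), among them the crosslinking enzyme *Loxl1* at −0.68 (adjusted p = 0.0536) and the procollagen enhancer *Pcolce* at −0.80 (adjusted p = 0.0847). For matrix glycoproteins and proteoglycans the counts were 17 lower and 2 higher of 31 (median −0.54), with biglycan (*Bgn*) at −0.55 (adjusted p = 0.0788) and *Thbs3* at −0.77 (adjusted p = 0.0954). *Thbs3* had −1.17 under NX/NG and −0.36 after OGD-R. The sum over the list lay the other way, at 5898 to 6894 RPKM in the *Cort*-/- libraries and 4943 to 6075 RPKM in the *Cort*+/+ libraries. For matrix proteases and their inhibitors the counts were 12 lower and 2 higher of 25 (median −0.38; 5 to 7 lower without *Cort*-/- NX/NG replicate 1 or 2, *Cort*-/- OGD-R replicate 1 or *Cort*+/+ NX/NG replicate 1), with *Timp1* at −0.59 (adjusted p = 0.0963) and *Mmp14* at −0.38 (adjusted p = 0.102). The mesenchymal transcription factors had 19 of 29 lower and 0 higher (median −0.54), with *Nr2f2*, the venous fate factor COUP-TFII, at −0.64 (adjusted p = 0.0626) and *Twist2* at −0.83 (adjusted p = 0.0887). *Nr2f2* had −0.86 under NX/NG and −0.42 after OGD-R. Basement membrane genes did not share this side: 3 of 19 were higher and 2 lower (median 0.13), with *Col18a1* at 0.30 (adjusted p = 0.102). The 3 higher became 6 without *Cort*-/- OGD-R replicate 3 and 5 without *Cort*+/+ OGD-R replicate 3.

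Tested fibroblast and pericyte markers lay lower beside the matrix lists, counted at the same unadjusted threshold. Smooth muscle, epithelial, macrophage and astrocyte markers did not share this side. *Col3a1* is in both the collagen and the fibroblast list, so the fibroblast counts are not independent of the matrix counts. Of 18 fibroblast and leptomeningeal markers listed, 9 were tested, with 8 lower and 0 higher (median −0.68), *Tbx15* having −0.82 (adjusted p = 0.118). Below the filter, *Pdgfra* lay the other way under NX/NG, with 0.498 and 0.727 RPKM in *Cort*-/- against 0.326 to 0.375 RPKM. After OGD-R it had 0.597 and 0.306 RPKM against 0.439 to 0.573 RPKM. *Aldh1a2* had 5 to 27 reads per *Cort*-/- library and 23 to 46 per *Cort*+/+ library, *Islr* 4 to 31 and 11 to 27, and *Mfap4* 15 to 24 and 13 to 33. *Lum*, *Dpt*, *Slc6a13* and *Slc47a1* had 0 to 5 reads. Of 10 pericyte markers listed, 5 were tested, with 3 lower (median −0.62, and −0.86 under NX/NG and −0.19 after OGD-R). *Pdgfrb* had −0.62 (adjusted p = 0.156), with −0.99 under NX/NG and −0.24 after OGD-R. *Cspg4* had −1.05 (adjusted p = 0.176), with −1.91 under NX/NG and −0.19 after OGD-R. The pericyte markers below the filter were *Kcnj8* and *Higd1b* (0 to 1 reads per library), *Abcc9* (0 to 2), *Vtn* (2 to 16) and *Ndufa4l2* (0 to 20). The pericyte sum was 10.8 to 22.97 RPKM in the *Cort*-/- libraries and 19.5 to 27.2 RPKM in the *Cort*+/+ libraries. The smooth muscle sum was 983 to 1628 RPKM in the *Cort*-/- libraries and 1322 to 1873 RPKM in the *Cort*+/+ libraries, with 1 of 7 lower (median 0.02, *Actg2* −1.13 (adjusted p = 0.177), *Acta2* −0.25 (adjusted p = 0.373)). *Actg2* had −1.80 under NX/NG and −0.46 after OGD-R. No marker of these lists with values in both environments was at 0 in every library. Such values existed for 17 of the 18 fibroblast markers listed. The part of these cells in the matrix values was not tested. The choroid plexus sum was 20.97 to 25.8 RPKM in the *Cort*-/- libraries and 24.4 to 27.7 RPKM in the *Cort*+/+ libraries, with 1 of 3 lower (median −0.51, *Aqp1* −0.95 (adjusted p = 0.241), *Enpp2* −0.51 (adjusted p = 0.389)). *Aqp1* had −1.74 under NX/NG and −0.17 after OGD-R. Epithelial markers overlapped widely, at 15.6 to 51.7 RPKM in the *Cort*-/- libraries and 10.8 to 78.3 RPKM in the *Cort*+/+ libraries, with 0 of 5 past an unadjusted p of 0.05 (*Krt19* −0.46 (adjusted p = 0.433), *Krt18* 1.03 (adjusted p = 0.574)). Markers of brain parenchyma were scarce, with sums of 3.80 to 4.77 RPKM in the *Cort*-/- libraries and 3.21 to 4.72 RPKM in the *Cort*+/+ libraries for macrophages and microglia (*Cd68* 0.31 (adjusted p = 0.483), *Csf1r* 0.00), 2.22 to 4.21 RPKM in the *Cort*-/- libraries and 2.05 to 3.73 RPKM in the *Cort*+/+ libraries for astrocytes (*Aldh1l1* 0.51 (adjusted p = 0.332)), 6.11 to 10.4 RPKM in the *Cort*-/- libraries and 8.55 to 14.7 RPKM in the *Cort*+/+ libraries for neurons (*Tubb3* −0.62 (adjusted p = 0.0963)) and 0.280 to 0.507 RPKM in the *Cort*-/- libraries and 0.412 to 0.615 RPKM in the *Cort*+/+ libraries for oligodendrocytes, where none was tested.

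Endothelial identity and junction genes leaned the other way at that threshold. Of 30 endothelial identity genes 12 were higher and 0 lower, 24 had a positive log2 fold change, and the median was 0.20, with the endothelial nitric oxide synthase *Nos3* at 0.40 (adjusted p = 0.0588) and *Cd34* at 0.39 (adjusted p = 0.0963). The count of 12 was 4 to 7 without *Cort*-/- NX/NG replicate 1 or 2, *Cort*-/- OGD-R replicate 1 or *Cort*+/+ NX/NG replicate 1 or 2. Of 26 tight and adherens junction genes 10 were higher and 3 lower (median 0.12). Only 4 to 6 were higher without *Cort*-/- NX/NG replicate 2, *Cort*-/- OGD-R replicate 1, *Cort*+/+ NX/NG replicate 1 or 2 or *Cort*+/+ OGD-R replicate 1. The 2 with the lowest p were on the lower side, namely connexin 43 (*Gja1*) at −0.63 (adjusted p = 0.0904) and the mesenchymal cadherin *Cdh11* at −0.75 (adjusted p = 0.0954). *Gja1* had −0.73 under NX/NG and −0.53 after OGD-R, and *Cdh11* −1.12 and −0.37. Of 28 blood-brain barrier transporters 4 were higher and 6 lower (median 0.05), *Slco4a1* being the 1 called. There were 2 higher without *Cort*-/- NX/NG replicate 1 or *Cort*-/- OGD-R replicate 1, and 3 lower without *Cort*-/- NX/NG replicate 2. Cell cycle genes had 21 of 38 higher and 2 lower (median 0.19), with cyclin D1 (*Ccnd1*) at 0.52 (adjusted p = 0.0877) and the licensing factor *Cdt1* at 0.24 (adjusted p = 0.1001). Without *Cort*-/- OGD-R replicate 3 the counts were 13 higher and 4 lower.

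Growth factor, Wnt and lipid synthesis lists had more members lower than higher at that threshold, and the VEGF list was near even. IGF ligands, receptors and binding proteins had 6 of 11 lower and 0 higher (median −0.39), with *Igfbp4* at −0.97 (adjusted p = 0.0963) and *Igfbp5* at −1.24 (adjusted p = 0.144). The list median was −0.56 under NX/NG and −0.21 after OGD-R, and *Igfbp5* had −2.02 under NX/NG and −0.47 after OGD-R. The TGF-beta and BMP pathway had 16 of 39 lower and 3 higher (median −0.19), with the BMP receptor *Bmpr1a* at −0.70 (adjusted p = 0.0568) and the BMP antagonist *Grem1* at −0.72 (adjusted p = 0.0635). Without *Cort*-/- NX/NG replicate 2 it had 9 lower, and its sum lay the other way from its median, at 2592 to 2789 RPKM in the *Cort*-/- libraries and 2143 to 2634 RPKM in the *Cort*+/+ libraries. PDGF, FGF and neurotrophin signalling had 7 of 16 lower and 2 higher (median −0.25), with *Pdgfc* at −0.71 (adjusted p = 0.0813) and *Fgf7* at −0.66 (adjusted p = 0.0963). The Wnt pathway had 9 of 23 lower and 2 higher (median −0.04, *Ryk* −0.26 (adjusted p = 0.1001), *Dkk3* −0.75 (adjusted p = 0.1001)). *Dkk3* had −1.13 under NX/NG and −0.37 after OGD-R. VEGF, angiopoietin and Notch genes had 5 lower and 4 higher of 25 (median 0.08), with *Vegfa* at −0.62 (adjusted p = 0.0734) and the lymphatic receptor *Flt4* at 0.31 (adjusted p = 0.0788). The 4 higher were 8 and 7 without *Cort*-/- OGD-R replicate 3 or *Cort*+/+ NX/NG replicate 3, and 2 without either *Cort*-/- NX/NG replicate, *Cort*-/- OGD-R replicate 1 or *Cort*+/+ NX/NG replicate 1. Cholesterol and fatty acid synthesis had 14 of 27 lower and 0 higher (median −0.28), with the synthase *Hmgcs1* at −0.45 (adjusted p = 0.0635).

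Inflammatory and stress lists differed among themselves, counted at the same unadjusted threshold. More of the members past it were lower than higher among TNF receptor, antigen presentation, hypoxia, antioxidant and immediate early genes. Among 16 genes of the TNF receptor superfamily 3 were higher and 4 lower (median 0.06), *Tnfrsf1b* being called, and among 16 integrins 4 and 4 (median 0.05), *Itga3* being called. Of the 16 TNF receptor genes 5 lie within 10 Mb of *Cort*, where 30.1% of the genes tested passed the unadjusted threshold. Without 1 library the TNF receptor list had 1 to 4 higher and 3 to 5 lower. Chemokines, cytokines and leukocyte adhesion genes had 4 higher and 4 lower of 21 (median 0.03, *Il34* −1.16 (adjusted p = 0.0954), *Il11* −0.65 (adjusted p = 0.0963)). Antigen presentation had 3 of 14 lower (median 0.07, *Cd80* −0.84 (adjusted p = 0.0635), *Tap1* −0.23 (adjusted p = 0.127)), and interferon-stimulated genes had 1 higher and 1 lower of 31 (median 0.16, *Slfn9* 0.44 (adjusted p = 0.0937), *Ifi30* −0.72 (adjusted p = 0.0963)). Without *Cort*-/- NX/NG replicate 2 the chemokine list had 1 higher. The interferon list had 5 higher without *Cort*+/+ OGD-R replicate 3. The interferon median differed in sign between environments, at 0.38 under NX/NG and −0.10 after OGD-R. Hypoxia and glycolysis genes had 3 higher and 6 lower of 34 (median 0.00), *Eno1b* being called. Antioxidant and NRF2 targets had 1 higher and 6 lower of 27 (median −0.07, *Hmox1* 0.32 (adjusted p = 0.0991), *Vnn1* −0.82 (adjusted p = 0.134); 10 lower without *Cort*-/- OGD-R replicate 3), and immediate early genes 2 and 5 of 22 (median −0.02, *Nr4a1* −0.74 (adjusted p = 0.0588), *Klf4* −0.75 (adjusted p = 0.123)). Prostanoid, nitric oxide and vascular tone genes had 7 higher and 6 lower of 18 (median 0.00), *Ptgs1* being called. There were 4 higher without *Cort*-/- OGD-R replicate 1 or *Cort*+/+ NX/NG replicate 3. None of the 4 sex-linked transcripts tested passed even the unadjusted threshold (*Eif2s3y* −0.12 (adjusted p = 0.666), *Kdm5d* 0.06 (adjusted p = 0.817)).

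**Figure D5:**
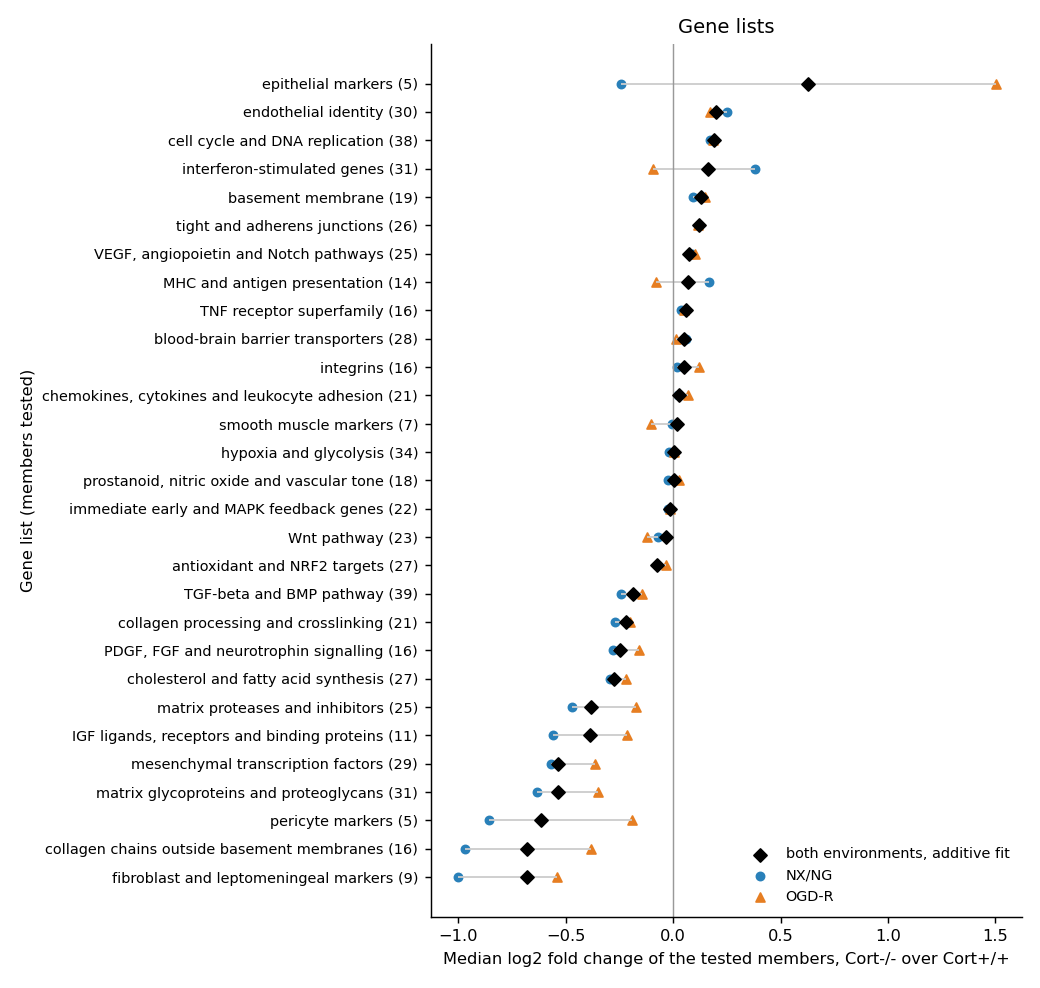
Median log2 fold change of *Cort*-/- over *Cort*+/+ of the tested members (horizontal axis) for each list with at least 5 of them, overall and within each environment. Fibroblast markers, collagen chains and pericyte markers lie lowest, and endothelial identity and cell cycle genes lie above 0.

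Leaving out both libraries that were low in ribosomal RNA, 35 genes were higher (0.254%) and 141 lower (1.02%), and 26 of the 28 genes remained among them. In that comparison of 8 libraries listed genes were called that had not passed with all 10, nearly all lower: *Col11a1* and *Col6a1* among the collagens, *Lox*, *Loxl1*, *Loxl3* and *Pcolce* among collagen processing genes, *Bgn* and *Spon2* among matrix glycoproteins, *Nr2f2*, *Osr1*, *Prrx2*, *Foxd1* and *Tead3* among transcription factors, *Igfbp4*, *Igfbp5* and *Igfbp6*, and *Bmpr1a*, *Grem1*, *Id2* and *Vasn* of the BMP pathway. Also called lower were *Timp1* and *Adamts1* among the proteases and inhibitors, *Cdh11* of the junctions, *Aqp1* and *Slc7a2* among the transporters, *Dkk3*, *Angptl2*, *Vegfd* and *Fgf7* of the growth factor and Wnt lists, and *Itgbl1* and *Itga10* of the integrins. Further genes called lower were *Tnfrsf11b* and *Fas* of the TNF receptors, *Il34*, *Cd80* and *Ifi30* of the immune lists, *Nr4a1*, *Klf4*, *Ldha* and *Actg2*, and *Cryab*, *Vnn1*, *Gstm5*, *Sod3*, *Gpx8* and *Gstp1* of the antioxidant list. The receptor *Flt4* and the claudin *Cldn1* were called higher there. At the unadjusted threshold the antioxidant list then had 1 higher and 11 lower, the VEGF list 8 and 6, the basement membrane list 5 and 1, the chemokine list 6 and 3, the cell cycle list 16 and 3, the smooth muscle list 0 and 3, the choroid plexus list 0 and 2 and the epithelial list 0 and 1. The smooth muscle median was −0.08 and the fibroblast median −0.93. No endothelial identity, basement membrane, cell cycle or cholesterol gene was called there. The genes just outside the threshold with all 10 libraries were *Gm8292* at −1.002 (adjusted p = 0.0513), the receptor phosphatase *Ptprk* at 0.43 (adjusted p = 0.0513), *Loxl1*, *Bmpr1a*, *Fam131b* at −0.71 (adjusted p = 0.0570) and the syndecan *Sdc4* at −0.37 (adjusted p = 0.0570), and those just inside were *Ano1* and *Ulbp1*.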

How the data were processed

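The authors processed stranded mRNA libraries with the reanalyzerGSE pipeline, keeping genes of low expression, and deposited RPKM values in a table per environment. The submitters' processing notes name edgeR, and the aligner, build and annotation are not given in the sources used here. RPKM steps gave whole reads for over 99.9% of values in every library (tolerance 0.05 reads). Both tables were rescaled together from these reads by trimmed mean of M values, and printed RPKM are the jointly scaled values. Tables of the authors' own fold changes and p-values, and 10 columns of further library categories, were not used.

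Genes averaging 1 RPKM or more were tested with limma 3.58.1 (R 4.3.3) on log2(RPKM + 0.1) with genotype and environment as terms and Benjamini-Hochberg adjustment over 13789 genes. That scale understates the change of low genes, and floors of 3 reads cover counting error only. The code was tested on simulated data.

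Named genes were the 10 highest and 10 lowest called without overlap in either environment, those called within 10 Mb of *Cort*, up to 4 called members of each list (otherwise the 2 lowest p), and *Cort*, *Sst* and their receptors; *Sst*, *Sstr3*, *Sstr5* and *Ghsr* were not in both tables. The remaining called genes, overlapping or neighbouring genes, those just outside the threshold and those called with fewer libraries were named after their values were seen. The comparison and the lists were chosen with earlier results of these data known. Positions came from GENCODE M21 (GRCm38) by symbol for 97.4% of genes, and promoters from RefSeq. A few genes are not reported here, though counts include them. Alternatives varied scaling, filter, pseudocount, weights, model terms and libraries.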

Additional observations from a re-analysis of the deposited data

Results flagged for a closer look

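In 6 of 132 groups examined (4.55%), 1 library lay farther from the others than Dixon's 95% limit allows, and chance gives about 5%. *Ccdc8* read 2.53 RPKM in *Cort*+/+ OGD-R replicate 3 against 1.82 to 2.04 RPKM in the other *Cort*+/+ libraries (ratio of gap to range 0.666). The basement membrane genes summed to 3224 RPKM in *Cort*-/- OGD-R replicate 1 against 2773 to 2817 RPKM (0.894), and the macrophage and microglial markers to 3.80 RPKM there against 4.68 to 4.77 RPKM (0.918). The epithelial markers summed to 78.3 RPKM in *Cort*+/+ NX/NG replicate 2 against 10.8 to 20.9 RPKM (0.666). The astrocyte markers summed to 3.73 RPKM in *Cort*+/+ OGD-R replicate 2 against 2.05 to 2.54 RPKM (0.643). The IGF ligands, receptors and binding proteins summed to 649.7 RPKM in *Cort*-/- OGD-R replicate 3, a library low in ribosomal RNA, against 557 to 572 RPKM (0.834).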

How the results depend on the processing

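Over 25 alternatives, the 28 called genes gave 700 values, of which none changed sign, 455 stayed past the threshold and 245 did not; the cause was not tested. The 28 calls became 142 with limma-voom on the recovered reads (26 shared), 485 with library quality weights, 50 with a term that marks both libraries of low ribosomal RNA, 176 without them and 13 with no environment term. Without 1 library there were 7 to 322 calls, 2 to 8 near *Cort* and 0 to 2 for the interaction (2 without *Cort*-/- OGD-R replicate 1). Near *Cort* there were 11 calls with quality weights, and the interaction called 3 genes with no filter on low values. Fewer samples enter each fit that leaves out a library. Same-numbered libraries of a genotype correlated at −0.143 to 0.185 across environments in their deviations from group means, and differently numbered ones at −0.240 to 0.242. In the *Cort*-/- groups of 2 libraries the deviations mirror each other, so these values cannot show whether libraries shared a pool. With the number as a fixed block there were 12 calls, with genotype and number as a random block 19, and with 1 mean per genotype and number as the block 4, of which 1 was near *Cort*. *Csf1r*, at 0.00 in the report, turned to −0.011 under the fixed block and ranged from −0.070 to 0.083 without 1 library (−0.066, −0.033, −0.033, −0.070 and −0.014 where its sign turned). The other named genes kept their sign. Of 775 list medians 769 moved by less than the spread between replicates.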

Other observations

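Called genes whose level also differed between the environments did so in the opposite direction to the genotype. Of the 13 called genes with an unadjusted environment p under 0.05, the 6 that were higher in *Cort*-/- BECs were lower after OGD-R, among them *Slco4a1* and *Itga3*, and the 7 that were lower in *Cort*-/- BECs were higher after OGD-R, among them *Osmr*, *Ptgs1* and *Tgfbi*. Of 428 further genes with an unadjusted p under 0.05 for both terms, 349 (81.5%) had opposite signs, against 58.4% of all genes tested. This pattern was noticed in the same libraries and was not tested, and the OGD-R libraries include both that are low in ribosomal RNA.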
